A study of Danio rerio with 18 samples.

Results

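The genes described here are 10 markers of zebrafish macrophages and microglia, chosen by name: mpeg1.1, mpeg1.2, havcr1, lgals9l1, gpr183a, csf1ra, marco, mfap4, spi1b and apoc1. They were looked up by symbol in the deposited table of read counts, in which 25266 rows name a gene. A row was found for 9 of the 10 markers. All 9 had enough reads to pass the low-count filter and were among the 22038 genes tested. mpeg1.1 is not analysed here. The markers and the gene lists below were chosen with earlier results of these data known. Their counts and medians beside those of all genes are therefore descriptions, not a test of a set chosen blind.

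The libraries came from 18 whole larvae of the wildtype AB strain, each library from a single larva. Every larva had been assigned at 6 days post fertilization (dpf) to a resilient or a susceptible archetype, had rested for a day and was put into Trizol at 7 dpf. The resilient archetype was represented by 4 basal larvae and by 5 larvae taken 30 min after a stressor of 5 min, and the susceptible archetype likewise by 4 basal and 5 stressed larvae. The labels name no transgene, mutation or drug in any group. The labels used here do not say how a larva was scored for its archetype or from which clutch or day it came, and effects of clutch or day and of group cannot be told apart.

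Macrophages engulf and digest microbes and dying cells, and microglia are the macrophages that settle in the brain, where they clear dead neurons. In zebrafish larvae both depend on the transcription factor PU.1 and on signals through the Csf1 receptor. Among the 9 markers, spi1b encodes PU.1, and csf1ra encodes a Csf1 receptor that xanthophores, the yellow pigment cells, also use. gpr183a encodes a G protein-coupled receptor which, in mammals, senses oxysterols and guides the migration of immune cells. marco encodes a scavenger receptor that binds bacteria, and havcr1 belongs to the TIM family, which in mammals binds phosphatidylserine on dying cells. mpeg1.2 encodes a perforin-like protein that attacks bacteria inside phagocytes. The secreted or lectin-type products are lgals9l1, a galectin of the galectin 9 type, mfap4, a fibrinogen-domain protein whose promoter is widely used to mark zebrafish macrophages, and apoc1, a lipoprotein component made by liver and yolk syncytial layer as well as by macrophages.

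Library totals ran from 8452595 to 23801175 reads. Each marker had reads in every larva, from 27 reads (gpr183a in resilient stressed 2) to 30232 (apoc1 in susceptible basal 1). The genes csf1ra, spi1b, marco and mfap4, taken here as defining for macrophages, thus had reads in all 18. mpeg1.1, also taken as defining, was not analysed. Levels are in CPM, that is read counts relative to library size, scaled with TMM library factors, and serve to compare larvae for one gene, not genes with each other. On the first principal component of log2 CPM (17.3% of the variance) resilient stressed 2 and 3 lay highest, at 53.7 and 57.0, and resilient basal 1 and 3 lowest, at -32.2 and -34.5. Results are therefore also given without these pairs. All 5 resilient stressed larvae (16.6 to 57.0) lay above every other larva (at most 3.92) on this axis. The pairs are thus extremes of the resilient contrast. Leaving them out lessens that contrast by construction and leaves fewer larvae, so calls lost there do not by themselves show an unstable result. In whole-larva RNA, fewer cells of a type and less RNA per cell cannot be told apart.

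**Figure D1:**
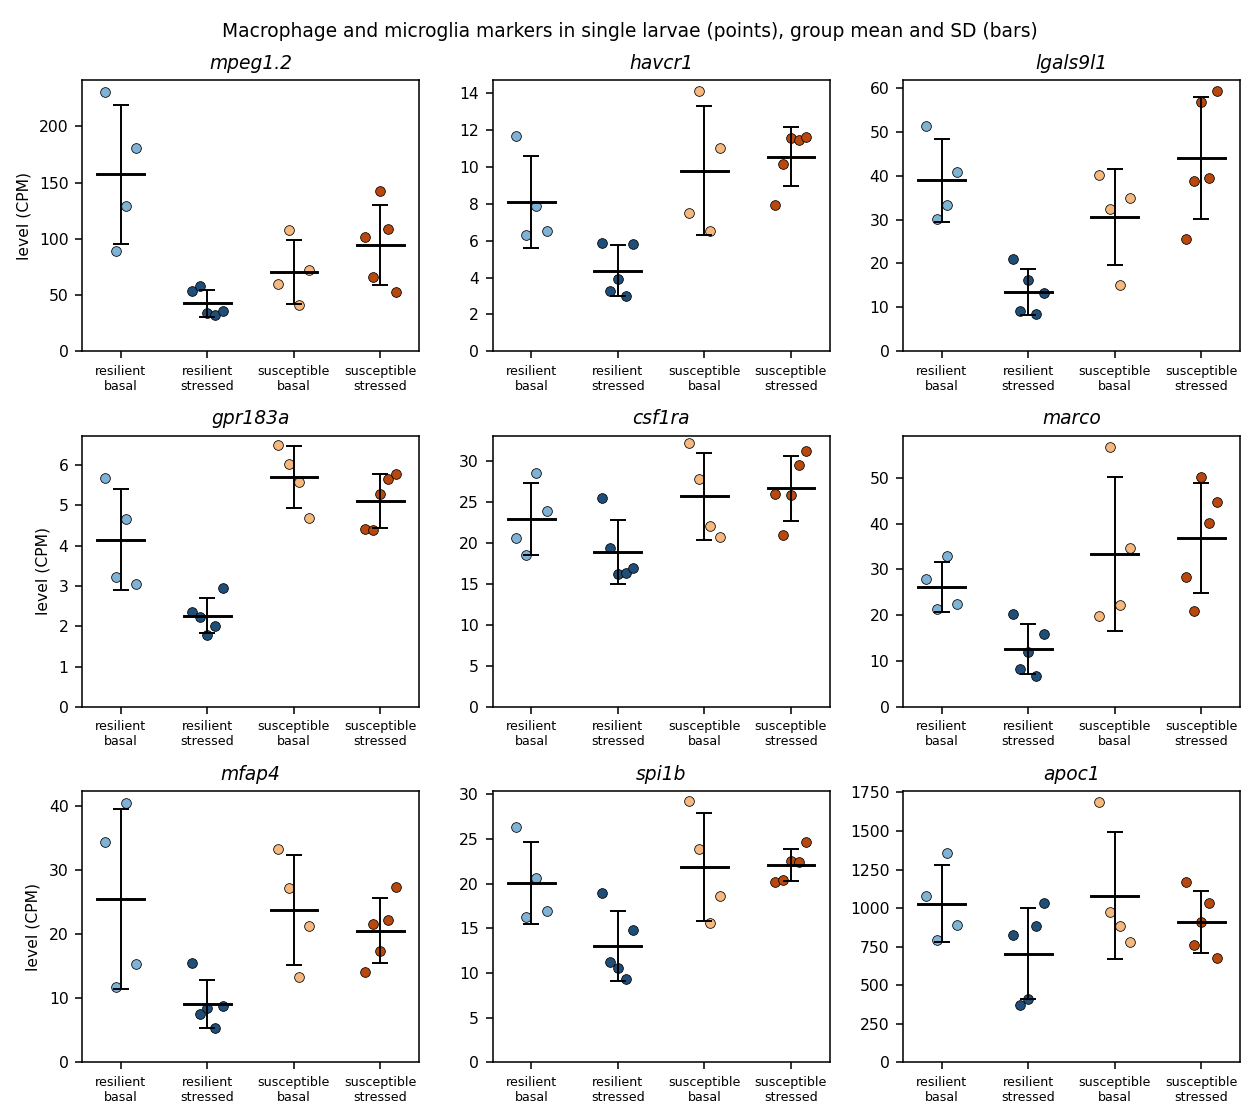
Level of each of the 9 markers in single larvae (points, CPM on a linear axis that starts at 0) for the 4 groups, with the group mean (horizontal line) and SD (bars), n = 4, 5, 4 and 5. The 5 resilient stressed larvae have the lowest mean of the 4 groups for all 9 markers. Their range is separate from that of the group with the next lowest mean only for havcr1, gpr183a and marco. The other groups, taken in the order of their means, overlap.

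The first comparison asked how resilient larvae taken after stress differed from resilient larvae taken at basal conditions. In stressed resilient larvae 5 of the 9 markers fell and none rose. The perforin gene mpeg1.2, the galectin gene lgals9l1 and mfap4 fell the most, 3.69-fold, 2.86-fold and 2.79-fold, and the receptor genes havcr1 and gpr183a fell 1.86-fold and 1.84-fold. The other 4 markers, csf1ra, marco, spi1b and apoc1, were lower on average but did not pass the test. The test was edgeR's quasi-likelihood test, with p-values adjusted by Benjamini-Hochberg over all 22038 genes and a threshold of 0.05 for a call. For comparison, 3.59% of all tested genes were called lower, against 5 of 9 markers. That background moves with single larvae as well: the 791 genes called lower became 243 of 22318 tested without resilient basal 1 and 1094 of 22078 without resilient stressed 5, with 1 and 5 markers among them. The median log2 fold change was -0.89 over the 9 markers and 0.00 over all genes.

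Taking the phagocyte effector first, mpeg1.2 was at 231, 89.2, 129 and 181 CPM in resilient basal larvae 1 to 4 and at 53.5, 58.1, 33.9, 32.2 and 35.6 CPM in resilient stressed larvae 1 to 5. Every stressed larva lay below every basal larva. The fitted log2 fold change of mpeg1.2 was -1.89 (SE 0.35, 95% interval -2.62 to -1.15, edgeR adjusted p = 0.00815). This call held in each of the 9 fits that left out 1 larva of these groups, with edgeR adjusted p between 0.00433 and 0.0344.

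Among the phagocytic receptors, havcr1 was at 11.7, 6.33, 7.89 and 6.51 CPM in the basal larvae and at 5.88, 3.29, 3.93, 2.99 and 5.82 CPM in the stressed larvae. The groups did not overlap, but stressed larvae 1 and 5 lay close to the lower basal larvae. The log2 fold change of havcr1 was -0.89 (SE 0.26, edgeR adjusted p = 0.0455). Leaving out any one of resilient basal 1, 3 and 4 and resilient stressed 2, 3 and 4 ended this call (adjusted p up to 0.188). marco was at 28.0, 21.3, 33.0 and 22.4 CPM in basal and at 20.2, 8.24, 11.95, 6.72 and 15.98 CPM in stressed larvae. All stressed larvae lay below all basal ones, although stressed larva 1 missed the lowest basal larva narrowly. The log2 fold change of marco was -1.06 (SE 0.36, 95% interval -1.83 to -0.28) and was not called (edgeR adjusted p = 0.0986).

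Of the signalling receptors, gpr183a was at 5.67, 3.23, 4.67 and 3.04 CPM in basal and at 2.35, 2.22, 1.79, 2.01 and 2.95 CPM in stressed larvae, again without overlap. These levels rest on 35 to 62 reads per basal larva and 27 to 35 per stressed larva. The gap was narrow: stressed larva 5 was at 2.95 CPM (34 reads) and basal larva 4 at 3.04 CPM (35 reads). The fitted change of gpr183a was -0.88 on the log2 scale (SE 0.19, edgeR adjusted p = 0.0141), and the call ended without resilient basal 1 (adjusted p = 0.0676). csf1ra differed less: it was at 18.5 to 28.6 CPM in basal and at 16.2 to 25.5 CPM in stressed larvae, ranges that overlap widely. For csf1ra the log2 fold change was -0.28 (SE 0.17, 95% interval -0.63 to 0.07, edgeR adjusted p = 0.359).

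The lineage factor gene spi1b was at 26.3, 16.3, 20.6 and 16.9 CPM in basal and at 19.0, 11.3, 10.6, 9.31 and 14.8 CPM in stressed larvae. Only stressed larva 1 reached the basal range. The log2 fold change of spi1b was -0.63 (SE 0.21, 95% interval -1.06 to -0.19) and was not called (edgeR adjusted p = 0.0789).

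Among the secreted and lectin-type products, lgals9l1 was at 51.3, 30.2, 33.3 and 40.8 CPM in basal and at 21.1, 9.06, 16.1, 8.45 and 13.2 CPM in stressed larvae. The groups were well separated. For lgals9l1 the log2 fold change was -1.52 (SE 0.32, edgeR adjusted p = 0.0136), and the call ended without resilient basal 1 (adjusted p = 0.0551). mfap4 was split among the basal larvae, with 34.4 and 40.5 CPM in larvae 1 and 3 but 11.8 and 15.4 CPM in larvae 2 and 4. In stressed larvae it was at 15.4, 7.58, 8.55, 5.40 and 8.77 CPM, so stressed larva 1 overlapped with the lower basal pair. The fitted change of mfap4 was -1.48 on the log2 scale (SE 0.38, edgeR adjusted p = 0.0325), and the call ended without resilient basal 1 or 3 or resilient stressed 2, 3 or 4 (adjusted p up to 0.115). apoc1 was at 791 to 1358 CPM in basal larvae and at 371 and 412 CPM in stressed larvae 2 and 3, while the other stressed larvae, at 823, 885 and 1032 CPM, lay within the basal range. The log2 fold change of apoc1 was -0.55 (SE 0.31, 95% interval -1.20 to 0.11, edgeR adjusted p = 0.328).

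Stressed and basal larvae were fully separated for 5 of the 9 markers (mpeg1.2, havcr1, marco, gpr183a and lgals9l1), where 4.36% of all tested genes had every stressed larva below every basal larva. The authors' deposited table gave 7 of the 9 markers an adjusted p below 0.05 in this direction, against 4.05% of its 25266 genes, with spi1b and marco added to the 5 called here. Without both resilient basal 1 and 3, no marker was called by edgeR, and over all genes only 16 were called higher and 22 lower of 22734 tested. The 9 log2 fold changes stayed negative there, with a median of -0.55, and mfap4 went to -0.57 (SE 0.37) from its value of -1.48 above. Without both resilient stressed 2 and 3, again no marker was called, with all 9 negative and a median of -0.77. Over all genes 35 were then called higher and 34 lower of 22208 tested.

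**Figure D2:**
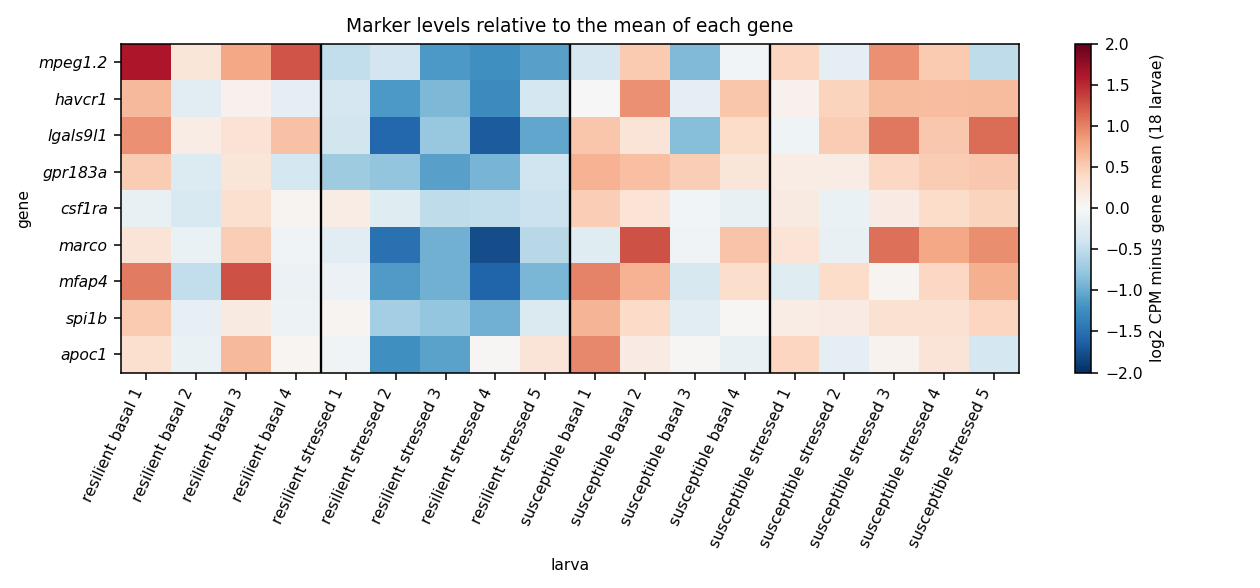
Each of the 9 markers (rows) in each of the 18 larvae (columns, groups divided by black lines), coloured by log2 CPM minus the mean of that gene over all larvae. Resilient stressed 2 and 3 are below the mean for all 9 markers and resilient stressed 4 and 5 for 8 of them, while resilient basal 3, susceptible basal 2 and susceptible stressed 3 and 4 are above it for all 9.

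In susceptible larvae no marker was called between stressed and basal larvae, and none had an unadjusted p below 0.05. The same test called 0% of all 22038 genes in this comparison, with 1642 genes at an unadjusted p below 0.05, and DESeq2 also called no marker. Of the 9 log2 fold changes, 6 were positive and 3 negative, with a median of 0.05 (-0.00 over all genes).

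mpeg1.2 was at 59.95, 108, 40.9 and 72.7 CPM in susceptible basal larvae 1 to 4 and at 101, 65.8, 142, 109 and 53.1 CPM in susceptible stressed larvae 1 to 5. lgals9l1 was at 40.2, 32.4, 15.01 and 34.9 CPM in basal and at 25.6, 38.8, 56.6, 39.5 and 59.2 CPM in stressed larvae. Both genes leaned upward with overlapping groups, and their log2 fold changes of 0.42 (SE 0.34, 95% interval -0.32 to 1.15) and 0.51 (SE 0.31, 95% interval -0.16 to 1.17) were the furthest from 0. The receptor gene havcr1 was at 7.49, 14.1, 6.54 and 11.1 CPM in basal and at 7.94, 10.2, 11.6, 11.5 and 11.6 CPM in stressed larvae. gpr183a was at 6.49, 6.03, 5.57 and 4.68 CPM in basal and at 4.40, 4.38, 5.29, 5.66 and 5.77 CPM in stressed larvae. marco was at 19.7, 56.7, 22.3 and 34.7 CPM in basal and at 28.3, 21.0, 50.3, 40.2 and 44.7 CPM in stressed larvae. All 3 overlapped between basal and stressed larvae, with log2 fold changes of 0.10 (SE 0.24) for havcr1, -0.16 (SE 0.18) for gpr183a and 0.14 (SE 0.35) for marco.

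spi1b was at 29.3, 23.9, 15.6 and 18.6 CPM in basal and within 20.2 to 24.6 CPM in all 5 stressed larvae, so the stressed larvae lay inside the basal range. Its log2 fold change was 0.00 (SE 0.20, 95% interval -0.42 to 0.43). mfap4 ran from 13.3 to 33.3 CPM in basal and from 14.1 to 27.3 CPM in stressed larvae, with a log2 fold change of -0.22 (SE 0.37). For csf1ra the value was 0.05 (SE 0.17) and for apoc1 -0.25 (SE 0.31), with edgeR adjusted p between 0.782 and 0.998 over the 9 markers. The intervals for mpeg1.2 and lgals9l1 hold rises of more than 1 on the log2 scale, so these data do not show that the markers were unchanged.

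After stress, the archetypes differed in 5 of the 9 markers, all higher in susceptible than in resilient larvae. lgals9l1 was 3.24-fold and the scavenger receptor gene marco 2.93-fold higher, havcr1 and gpr183a were 2.43-fold and 2.26-fold higher, and spi1b was 1.70-fold higher. Over all genes 1.77% were called higher in susceptible larvae, 391 genes, which became 81 without resilient stressed 3 and 969 without resilient stressed 5. Of these 81 and 969 genes, 3 and 5 were markers, and the median log2 fold change was 1.18 over the 9 markers and -0.00 over all genes. This comparison uses the same 5 resilient stressed larvae as the first one, so low values in those larvae enter both.

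For gpr183a the lowest susceptible stressed larva, at 4.38 CPM, lay above the highest resilient stressed larva, at 2.95 CPM, and the log2 fold change was 1.18 (SE 0.18, edgeR adjusted p = 0.00527). For havcr1 the susceptible larvae started at 7.94 CPM and the resilient ones ended at 5.88 CPM, with a log2 fold change of 1.28 (SE 0.24, edgeR adjusted p = 0.0111). For lgals9l1 these bounds were 25.6 and 21.1 CPM, with a log2 fold change of 1.69 (SE 0.31, edgeR adjusted p = 0.0115). These 3 calls held in each of the 10 fits that left out 1 stressed larva, with adjusted p at most 0.0186, 0.0375 and 0.0354.

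For marco the bounds were 21.0 and 20.2 CPM, a narrow gap, and the log2 fold change was 1.55 (SE 0.35, edgeR adjusted p = 0.0247). For spi1b they were 20.2 and 19.0 CPM, with a log2 fold change of 0.77 (SE 0.19, edgeR adjusted p = 0.0370). Both calls were less stable. That of marco ended without resilient stressed 2 or 3 or susceptible stressed 3, 4 or 5 (edgeR adjusted p up to 0.0767), and that of spi1b without resilient stressed 2, 3 or 4 or susceptible stressed 2, 3, 4 or 5 (edgeR adjusted p up to 0.110).

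The remaining 4 markers overlapped between the archetypes after stress. mpeg1.2 overlapped through susceptible stressed 5, at 53.1 CPM, and resilient stressed 1 and 2, at 53.5 and 58.1 CPM, with a log2 fold change of 1.14 (SE 0.33, edgeR adjusted p = 0.0637). mfap4 overlapped through susceptible stressed 1, at 14.1 CPM, and resilient stressed 1, at 15.4 CPM, with a log2 fold change of 1.18 (SE 0.36, edgeR adjusted p = 0.0794). csf1ra ran from 20.9 to 31.2 CPM in susceptible stressed larvae and only resilient stressed 1, at 25.5 CPM, reached that range. Its log2 fold change was 0.50 (SE 0.16, edgeR adjusted p = 0.0781). apoc1 was at 677 to 1168 CPM in the susceptible larvae, with a log2 fold change of 0.37 (SE 0.29, 95% interval -0.25 to 0.99, edgeR adjusted p = 0.520).

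Full separation of the 2 stressed groups, with every susceptible larva above every resilient one, was seen for 5 of the 9 markers and for 2.46% of all tested genes. The authors' deposited table gave 8 of the 9 markers, all but apoc1, an adjusted p below 0.05 in this direction, against 2.83% of its genes. Without both resilient stressed 2 and 3 no marker was called by edgeR, and over all genes 4 were called higher and 12 lower. The median over the 9 markers was then 1.07, with 8 positive and apoc1 at -0.01 (SE 0.24), and the smallest adjusted p among them was that of gpr183a, 0.0750.

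**Figure D3:**
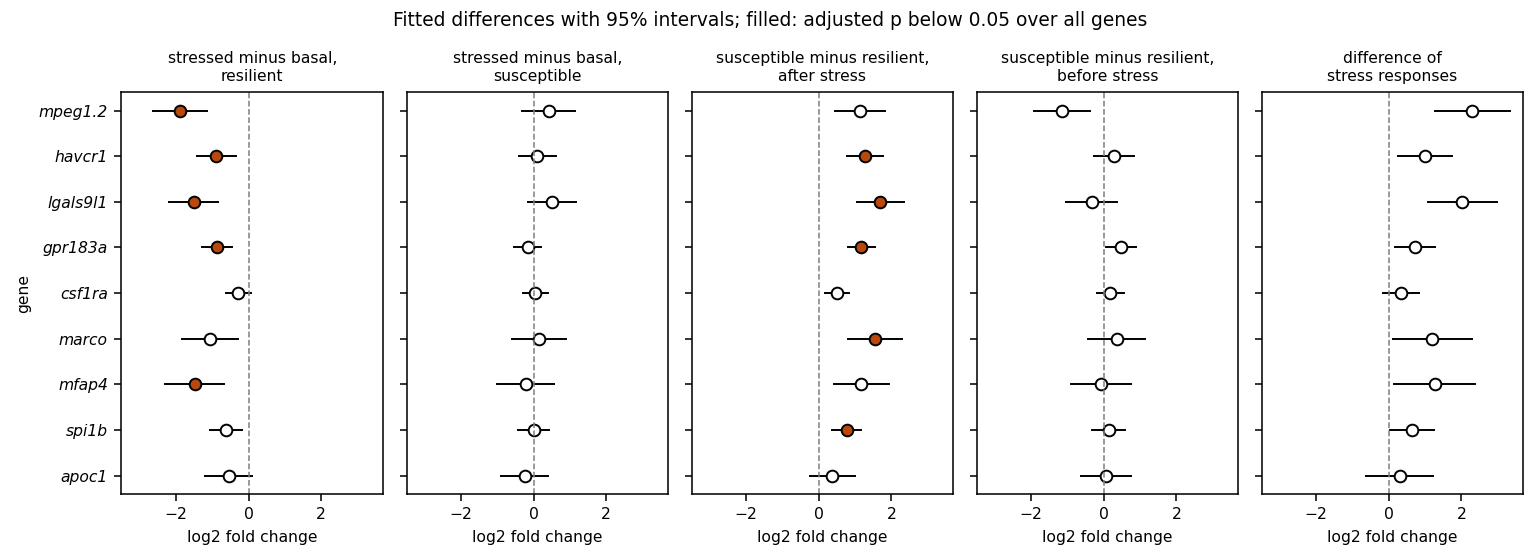
Fitted log2 fold change (circle) with its 95% interval (line) for each marker in 5 comparisons, filled where the edgeR adjusted p over all genes is below 0.05. Filled circles stand in 2 panels only: 5 markers below 0 for stress in resilient larvae, and 5 above 0 for susceptible against resilient larvae after stress.

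Before stress, no marker was called between the archetypes by edgeR or by DESeq2. The edgeR test called 0% of all genes, although 1311 had an unadjusted p below 0.05, among them mpeg1.2 and gpr183a. mpeg1.2 was the marker furthest from 0 and lay lower in susceptible basal larvae, 70.4 ± 28.2 CPM (SD, n = 4), than in resilient basal larvae, 157 ± 61.7 CPM (SD, n = 4). Its log2 fold change was -1.16 (SE 0.36, 95% interval -1.93 to -0.39), with an unadjusted p of 0.00596 and an edgeR adjusted p of 0.747, and the ranges overlapped through susceptible basal 2. gpr183a leaned the other way, at 5.69 ± 0.771 CPM in susceptible and 4.15 ± 1.25 CPM in resilient basal larvae (SD, n = 4 each), with a log2 fold change of 0.46 (SE 0.20, edgeR adjusted p = 0.813). For the other 7 markers the log2 fold changes ran from -0.33 (lgals9l1) to 0.35 (marco), and all groups overlapped.

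The difference of the stress responses, susceptible minus resilient, was positive for all 9 markers but passed the threshold for none, against 0.141% of all genes called in either direction. The resilient groups enter this value again, so its sign is not separate evidence. Unadjusted p was below 0.05 for 7 markers, as for 2880 of all tested genes. mpeg1.2 had the largest difference, 2.30 on the log2 scale (SE 0.49, 95% interval 1.26 to 3.34, edgeR adjusted p = 0.0669), and lgals9l1 followed at 2.02 (SE 0.45, 95% interval 1.07 to 2.98, edgeR adjusted p = 0.0738). DESeq2 called both, with adjusted p of 0.00151 for mpeg1.2 and 0.000707 for lgals9l1. With edgeR, mpeg1.2 passed without resilient basal 2 (adjusted p = 0.0409) or susceptible basal 2 (0.0370), and lgals9l1 without resilient stressed 1 (0.0496). The other 7 markers lay between 0.30 (apoc1) and 1.26 (mfap4), with adjusted p between 0.231 and 0.831, so a marker that was called in resilient and not in susceptible larvae is not thereby shown to respond differently.

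The order of the group means differed among the markers. Resilient stressed larvae had the lowest mean for all 9. Resilient basal larvae had the highest mean for mpeg1.2 and mfap4, susceptible basal larvae for gpr183a and apoc1, and susceptible stressed larvae for havcr1, lgals9l1, csf1ra, marco and spi1b. Neighbouring groups in this order overlapped in range everywhere except at the bottom step from resilient basal to resilient stressed larvae for havcr1, gpr183a and marco.

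The markers also varied together among larvae of the same group. After each gene was centred within its group, all 36 pairs of markers had a positive Pearson r over the 18 larvae, with a median of 0.46 and a range from 0.06 (lgals9l1 with apoc1) to 0.84. spi1b followed the mean of the other 8 markers most closely (r = 0.89), then havcr1 (0.78) and mfap4 (0.77), while apoc1 (0.28) and mpeg1.2 (0.42) followed it least. The values of one larva share a library and its depth, and no such r for pairs of other genes is given for comparison. These r are therefore descriptions. Averaged over the 9 markers as centred log2 CPM, resilient basal larvae 1 to 4 stood at 0.63, -0.15, 0.48 and 0.12 and resilient stressed larvae 1 to 5 at -0.23, -0.96, -0.91, -1.10 and -0.53. Susceptible basal larvae stood at 0.42, 0.57, -0.23 and 0.20, and susceptible stressed larvae at 0.15, 0.11, 0.52, 0.48 and 0.44. On this average resilient basal 2 and susceptible basal 3 came close to resilient stressed 1, the highest of its group.

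Outside the 9 markers, the gene with the most similar pattern within groups was lcp2a, which encodes a leukocyte signalling adaptor (Pearson r = 0.94, Spearman rho = 0.90 over 18 larvae, of 22029 genes searched). Next came fybb, an adaptor of immune cell adhesion (r = 0.93, rho = 0.91), arpc1b, an actin-nucleating complex subunit (r = 0.92, rho = 0.92), a gene named only by a clone identifier (r = 0.91, rho = 0.88) and paox1 (r = 0.91, rho = 0.88). In resilient larvae the last 3 of these fell with stress, by 0.77, 1.17 and 1.01 on the log2 scale (edgeR adjusted p = 0.0372, 0.0149 and 0.0401). Over all genes 3.59% were called lower there. lcp2a, at -0.81 (SE 0.25), and fybb, at -0.39 (SE 0.23), did not pass (edgeR adjusted p = 0.0612 and 0.355).

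Other macrophage and microglia genes were followed as a list of 46 names, of which 32 were tested. In resilient larvae 8 of the 32 fell with stress and none rose, against 3.59% of all genes called lower. The median log2 fold change of the 32 was -0.45, with 26 negative and 6 positive. p2ry12, the purinergic receptor by which microglia sense injury, fell by 1.49 (SE 0.34, edgeR adjusted p = 0.0167), and the chemokine gene ccl34a.4 by 1.59 (SE 0.35, 0.0154). The chemerin receptor gene cmklr1 went from 20.5 ± 6.49 CPM (SD, n = 4) to 8.38 ± 2.71 CPM (SD, n = 5), a log2 fold change of -1.28 (SE 0.25, edgeR adjusted p = 0.00916). The scavenger receptor gene stab1 went from 77.3 ± 5.06 to 40.3 ± 10.6 CPM, a log2 fold change of -0.94 (SE 0.22, edgeR adjusted p = 0.0183). The lysosomal protease genes ctss2.1 (-1.19, SE 0.23) and ctss2.2 (-0.71, SE 0.18), the transporter gene slco2b1 (-0.46, SE 0.09) and the macrophage lineage factor gene irf8 (-0.69, SE 0.19) were the other 4 called (edgeR adjusted p = 0.00886, 0.0283, 0.00886 and 0.0345). ctss2.1 and ctss2.2 are close relatives among which reads may be split.

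After stress, 7 of these 32 genes were higher in susceptible than in resilient larvae and none lower, against 1.77% of all genes called higher. The median of the 32 was 0.46, with 27 positive and 5 negative. The 7 were ctss2.1, p2ry12, ccl34a.4, cmklr1 and stab1 again, and mrc1a and ms4a17a.10. stab1, at 83.2 ± 15.5 CPM in susceptible stressed larvae (SD, n = 5), had a log2 fold change of 1.05 (SE 0.21, edgeR adjusted p = 0.0144), and cmklr1, at 18.4 ± 4.11 CPM, one of 1.13 (SE 0.24, edgeR adjusted p = 0.0188). Neither count was stable. The calls over all genes moved with the same larvae, which applies to the lists below as well. Over all genes the 791 called lower became 243, 372, 352 and 346 without resilient basal 1, resilient basal 3, resilient stressed 2 and resilient stressed 3. The 391 called higher became 100 without resilient stressed 2 and 81 without resilient stressed 3. The 8 fell to 5 without resilient basal 1, without resilient basal 3 or without resilient stressed 3, and to 4 without resilient stressed 2, and the 7 fell to 1 without resilient stressed 2 or 3 and to 4 without resilient stressed 4 or susceptible stressed 2. Without either pair of larvae named above no gene of the list was called for stress in resilient larvae, with medians of -0.23 (without resilient basal 1 and 3) and -0.36 (without resilient stressed 2 and 3), and without the stressed pair none was called between archetypes either (median 0.44).

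A list of 38 tested genes of macrophage maturation and phagocytosis did not lean one way as a whole, with a median log2 fold change of 0.01 for stress in resilient larvae, 19 positive and 19 negative. Of these, 4 were called lower, against 3.59% of all genes. The 4 were irf8, the small GTPase gene rac2 (-0.58, SE 0.14), its activator dock2 (-0.61, SE 0.16) and the progranulin gene grna (-1.13, SE 0.30), with edgeR adjusted p of 0.0345, 0.0182, 0.0344 and 0.0342. Without resilient basal 1 or 3 or resilient stressed 2 or 3 none of the 38 was called lower, and without resilient stressed 4 there were 2. After stress grna (1.302, SE 0.28) and rac2 (0.50, SE 0.13) were higher in susceptible larvae, and the scavenger receptor gene cd36 was lower (-0.61, SE 0.14), with edgeR adjusted p of 0.0219, 0.0388 and 0.0228. All 3 calls ended without resilient stressed 2, resilient stressed 3 or susceptible stressed 4, only 1 gene of the list was called without susceptible stressed 2, and without susceptible stressed 3 or 5 1 was higher and 1 lower. Without resilient stressed 5, 3 were higher and 3 lower. Over all genes 391 were called higher and 391 lower with every larva, and 969 and 761 without resilient stressed 5.

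A further list held 7 tested genes: ligands of the receptor markers, enzymes of those ligands, and the receptor gene csf1rb. Of these, 1 was called in any comparison, lower with stress in resilient larvae, where 3.59% of all genes were called lower. The Csf1 receptor ligand genes csf1a, at 0.13 (SE 0.17), csf1b, at 0.11 (SE 0.17), and il34, at -0.18 (SE 0.20) on the log2 scale for stress in resilient larvae, were not called in any comparison. Of the enzymes that make or process oxysterol ligands for Gpr183 in mammals, ch25hl2 was the one called, lower with stress in resilient larvae, from 4.14 ± 1.40 CPM (SD, n = 4) to 2.43 ± 0.543 CPM (SD, n = 5), with a log2 fold change of -0.76 (SE 0.22, edgeR adjusted p = 0.0481). No gene of the list was called lower without resilient basal 1, 3 or 4 or resilient stressed 2, 3 or 4, without either pair of larvae, with no low-count filter, with either replicate block, or with only the groups compared. Without resilient stressed 2, and with DESeq2, 1 gene of the list was called higher. ch25h stood at 0.557 ± 0.258 CPM in basal and 1.60 ± 1.02 CPM in stressed resilient larvae, with a log2 fold change of 1.51 (SE 0.46, edgeR adjusted p = 0.0608). The second Csf1 receptor gene, csf1rb, was at -0.19 (SE 0.24) and was not called.

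**Figure D4:**
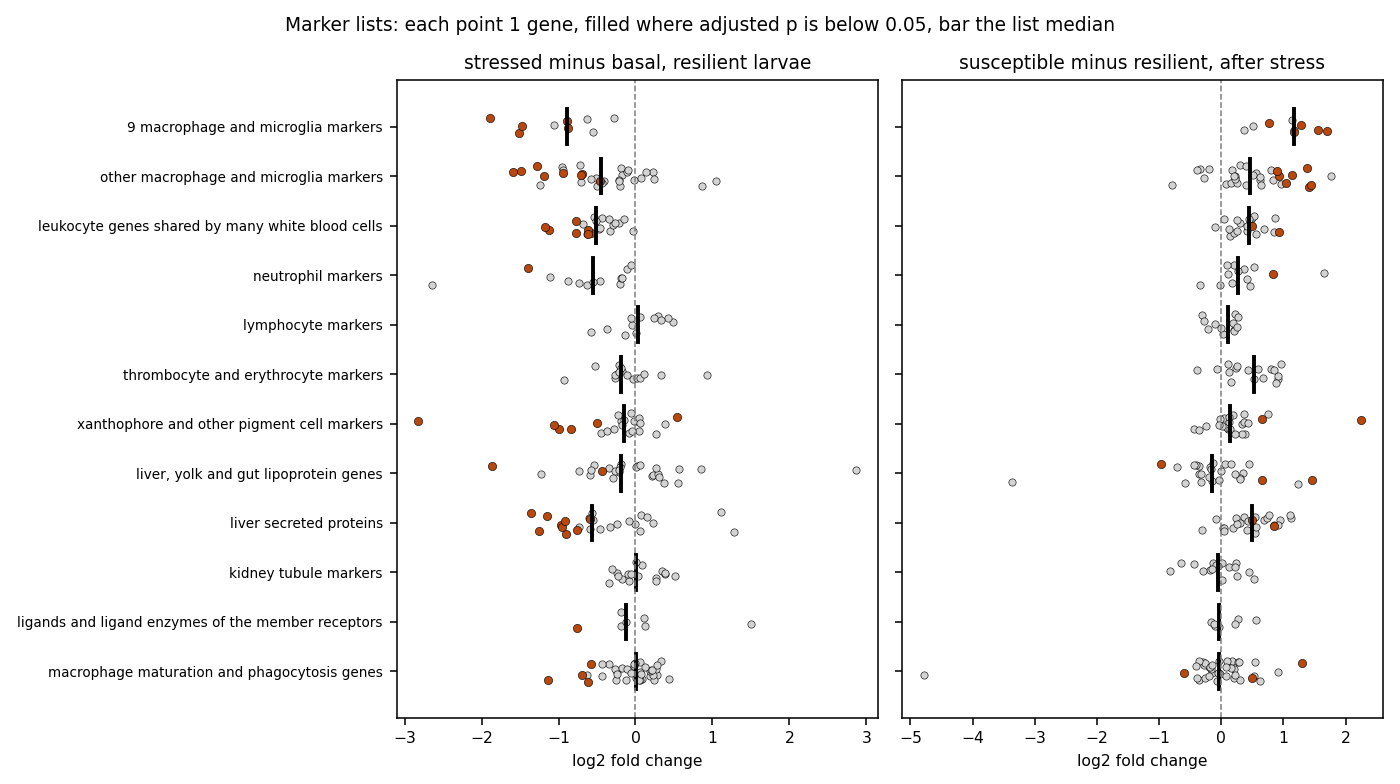
Log2 fold changes of single genes (points, filled where the edgeR adjusted p is below 0.05) in the 9 markers and 11 other gene lists, with the median of each list as a black bar, for stress in resilient larvae (left) and susceptible against resilient larvae after stress (right, on a wider axis). The markers have the median furthest from 0 in both panels, -0.89 and 1.18, and the medians of other macrophage, shared leukocyte, neutrophil, liver secreted, thrombocyte and erythrocyte and pigment genes lie on the same side of 0 as the markers in each panel.

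Some genes that many kinds of white blood cell share also fell. Of 21 tested genes shared by many leukocytes, 7 fell with stress in resilient larvae, against 3.59% of all genes. All 21 log2 fold changes were negative, with a median of -0.51. The 7 included lcp1, an actin bundling protein gene (-1.12, SE 0.30, edgeR adjusted p = 0.0386), and plek, a substrate of protein kinase C (-1.18, SE 0.26, edgeR adjusted p = 0.0141). After stress 2 of the 21, rac2 and plek, were higher in susceptible larvae, against 1.77% of all genes, and the median was 0.45. Without resilient basal 1 only 1 of the 7 was called, and 3 without resilient basal 3, resilient stressed 2 or resilient stressed 3. None was called without either pair of larvae, with medians of -0.21 (without resilient basal 1 and 3) and -0.40 (without resilient stressed 2 and 3). The 2 genes called between archetypes became 0 without resilient stressed 2 or 3 or without susceptible stressed 2, 3, 4 or 5, became 1 without resilient stressed 4 or susceptible stressed 1, and 4 without resilient stressed 1. The summed level of the list was 500 to 740 CPM in resilient basal and 376 to 517 CPM in resilient stressed larvae, and its part in the marker result was not tested.

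Neutrophil markers had a median of -0.55 over 13 tested genes, all negative, for stress in resilient larvae. Of these, 1 was called lower, against 3.59% of all genes, the proteoglycan gene srgn (-1.39, SE 0.24, edgeR adjusted p = 0.00440). The count became 0 without resilient basal 1 and 3 together and 3 without resilient basal 2 or resilient stressed 1. After stress 1 of the 13, padi2, a peptidylarginine deiminase gene, was higher in susceptible larvae (0.82, SE 0.18, edgeR adjusted p = 0.0198), against 1.77% of all genes. None was called there without resilient stressed 2, resilient stressed 3 or susceptible stressed 4. The defining granule genes mpx, at 79.5 ± 32.7 and 43.4 ± 17.5 CPM, and npsn, at 67.3 ± 26.6 and 40.6 ± 12.01 CPM in resilient basal (SD, n = 4) and resilient stressed larvae (SD, n = 5), were not called (edgeR adjusted p = 0.212 and 0.213). The gene lyz, also taken as defining for neutrophils, had no row. The list's sum was 549 to 1120 CPM in basal and 447 to 651 CPM in stressed resilient larvae, and its part in the marker result was not tested. Of 31 lymphocyte names only 12 were tested, and the defining genes lck and ighm had no row, so this list covers lymphocytes in part. Lymphocyte markers had 0 of 12 called and a median of 0.03, and the thymocyte gene rag1 stood at 0.49 (SE 0.17, edgeR adjusted p = 0.0988). Their sum was 177 to 214 CPM in resilient basal and 186 to 204 CPM in resilient stressed larvae. Thrombocyte and erythrocyte markers had 0 of 17 called, with medians of -0.19 for stress in resilient larvae and 0.53 for the archetypes after stress. Single larvae left out gave 0 to 2 called between the archetypes. Kidney tubule markers had 0 of 17 called, with medians of 0.01 and -0.06. Over all genes 3.59% were called lower with stress in resilient larvae and 1.77% higher between the archetypes after stress. A count of 0 in lists this short is near those shares and is not a result about these cells.

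Pigment cells bear on csf1ra, which xanthophores use. The xanthophore pteridine enzyme gene gch2 fell from 27.7 ± 11.1 CPM (SD, n = 4) to 3.99 ± 1.94 CPM (SD, n = 5) in resilient larvae, a log2 fold change of -2.82 (SE 0.51, edgeR adjusted p = 0.00796), and aox5 fell by 1.00 (SE 0.18, edgeR adjusted p = 0.00564). After stress both were higher in susceptible larvae, gch2 by 2.25 (SE 0.49, edgeR adjusted p = 0.0236) and aox5 by 0.65 (SE 0.17, edgeR adjusted p = 0.0404). xdh, the third defining xanthophore gene, stood at -0.06 (SE 0.13) and was not called. Of the 23 pigment genes tested 5 were lower and 1, pax7b, higher in stressed resilient larvae (sums 566 to 632 CPM in basal and 488 to 572 CPM in stressed larvae). Over all 22038 genes 791 (3.59%) were called lower and 608 higher. The 5 became 2 without resilient basal 1 or resilient stressed 3, 3 without resilient stressed 2, and 0 without either pair of larvae. Between archetypes 2 pigment genes were called higher, against 1.77% of all genes. They became 0 without resilient stressed 2 or 3 or susceptible stressed 2 or 4 and with the replicate block by title number. They became 1 without resilient stressed 1 or 4 or susceptible stressed 1, 3 or 5, and 5 without resilient stressed 5. The part of pigment cells in the csf1ra level was not tested.

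Liver and yolk genes bear on apoc1. Among 25 liver secreted protein genes 9 fell with stress in resilient larvae, against 3.59% of all genes, and the median was -0.57. The 9 include the ceruloplasmin gene cp, from 566 ± 155 CPM (SD, n = 4) to 255 ± 77.7 CPM (SD, n = 5), with a log2 fold change of -1.15 (SE 0.23, edgeR adjusted p = 0.00971). The 9 became 2 without resilient basal 1, resilient basal 3 or resilient stressed 3, and 3 without resilient basal 4 or resilient stressed 2, and none was called without either pair of larvae, with medians of -0.41 and -0.46. The defining liver gene fabp10a was at 620 ± 91.0 CPM in basal and 745 ± 116 CPM in stressed resilient larvae (log2 fold change 0.26, SE 0.18, edgeR adjusted p = 0.437), and tfa at -0.74 (SE 0.32, edgeR adjusted p = 0.187). Of 27 lipoprotein genes 2 fell, sar1b and apoc4, the latter a neighbour of apoc1 in the RefSeq annotation, from 4.06 ± 0.379 to 1.11 ± 0.308 CPM (log2 fold change -1.87, SE 0.30, edgeR adjusted p = 0.00314). The median of the 27 was -0.19, and the count of 2, against 3.59% of all genes, became 1 without resilient basal 1, resilient basal 3 or resilient stressed 3, 4 without resilient basal 2 or resilient stressed 5, and 0 without either pair of larvae. After stress the liver secreted list leaned above 0, with 23 of 25 positive and a median of 0.49. Of its genes 2 were called higher in susceptible larvae, against 1.77% of all genes, and single larvae left out gave 0 to 6 called. The lipoprotein list leaned below 0 after stress, with 17 of 27 negative and a median of -0.15. There apoc4 (1.47, SE 0.28, edgeR adjusted p = 0.0128) and the apolipoprotein gene apoa2 (0.66, SE 0.17, 0.0442) were higher in susceptible larvae, and the triglyceride synthesis gene dgat2 was lower (-0.98, SE 0.19, 0.0144). None of the 27 was called without resilient stressed 2 and 3 together, and leaving out single stressed larvae gave 1 to 3 higher (3 without resilient stressed 5) and 1 to 2 lower. The sums of the liver secreted list were 10409 to 15540 CPM in resilient basal and 9147 to 11305 CPM in resilient stressed larvae, and the part of liver and yolk in the apoc1 level was not tested.

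Several markers have close relatives, so the split of reads among copies is uncertain. In the RefSeq gene table mpeg1.2 stands beside other mpeg1 genes, lgals9l1 beside further galectin 9-like genes, mfap4 is an older symbol of mfap4.1 in a row of numbered copies, and spi1b and csf1ra have the duplicates spi1a and csf1rb. spi1a had a log2 fold change of -0.71 (SE 0.30) for stress in resilient larvae and 0.96 (SE 0.28) between the archetypes after stress, and was not called (edgeR adjusted p = 0.187 and 0.0683). lgals9l3, a galectin neighbour, stood at -0.41 (SE 0.12) and 0.40 (SE 0.11), with edgeR adjusted p of 0.0502 and 0.0568.

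**Figure D5:**
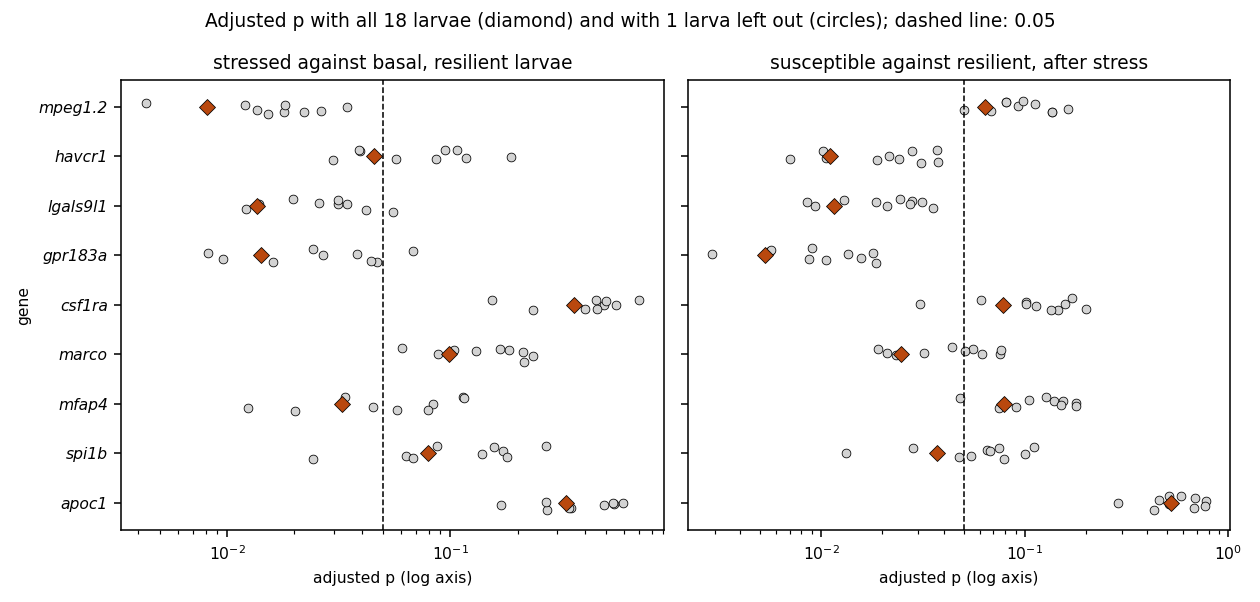
Adjusted p of each marker by edgeR (log axis) with all 18 larvae (diamond) and with 1 larva of the compared groups left out in turn (circles), for stress in resilient larvae (left) and susceptible against resilient larvae after stress (right). Left of the dashed line at 0.05, mpeg1.2 keeps all its circles in the left panel, and havcr1, lgals9l1 and gpr183a keep all theirs in the right panel.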

How the data were processed

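The authors deposited 1 table of the whole series, which per the file headers holds raw counts of reads per gene symbol for each larva. For each comparison it also holds their log2 fold change, p-value and adjusted p. The submitters' processing notes name the genome build danRer11 and the tools STAR, cutadapt and DESeq2. No source used here gives versions, the gene counter, the annotation or the strand setting, and reads from overlapping or antisense genes cannot be told apart. The deposited log2 values and p-values serve only where the authors' deposited table is named, and their fold changes were coded with the opposite sign to the one used here.

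Groups came from the sample titles. Of 25281 rows, 15 carry a name turned into a date. They name no gene and were left out (0.0613% to 0.0698% of the reads of a library). The counts were tested with edgeR 4.0.16 (R 4.3.3): TMM factors, filterByExpr, robust quasi-likelihood fit over all 18 libraries with 4 group means, F test, Benjamini-Hochberg adjustment over 22038 genes. The SE was taken from the F statistic (size of the log2 change divided by the root of F), and 95% intervals use the fitted degrees of freedom. CPM used TMM-scaled library sizes, and log2 CPM had 2 as its prior count. Each library came from a single larva, so p-values measure the spread between larvae. Within groups, 32 pairs of libraries differed by at least 6.89 in chi-square per degree of freedom over genes with at least 20 reads. No library thus looked like a copy of another of its group, and pairs from different groups were not compared.

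The markers, the 11 gene lists, the tests and the alternatives were chosen with earlier results of these data known. The lists hold 300 entries, of which 247 were matched to a row by symbol, older symbol or newer symbol and 232 were tested. RefSeq names of assembly GRCz12tu served for the matching. Named genes were the markers, up to 4 called genes per list with the smallest p, and the 5 genes most alike. Further genes of a list, and genes of a defining or related-copy panel, were named after their values were seen. Alternatives were DESeq2 1.42.0, RLE factors, no low-count filter, a minimum of 1 CPM in 4 or more libraries, a model with the compared groups alone, a block by either replicate number of the titles, and leaving out single larvae or pairs. Besides the pairs of resilient larvae, susceptible basal 1 and 2 were left out together. They were the lowest of their group on the first principal component (-14.5 and -31.0). The counts of list genes under these alternatives were added after seeing the data.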

Additional observations from a re-analysis of the deposited data

How the results depend on the processing

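The counts of called markers stayed within 1.5 times of the reported ones under RLE factors, without a low-count filter and with a 1 CPM filter (5, 0, 5, 0 and 0 in the order of the report). For stress in resilient larvae (5 markers), DESeq2 called 7. It called 8.85% in either direction of the 21330 genes to which it gave an adjusted p. Fitting only the groups compared left 2, with 3.02% of all genes called. Leaving out resilient basal 1 and 3, or resilient stressed 2 and 3, left 0, with 0.167% and 0.311% of all genes called. Single larvae left out gave 1 to 6, while the share of all genes called went from 1.78% (without resilient basal 1) to 8.69% (without resilient stressed 5). For the archetypes after stress (5), DESeq2 called 8, only the groups compared 6, and leaving out resilient stressed 2 and 3 gave 0. The share of genes called in either direction was 7.78%, 2.74% and 0.0720% in these fits in turn, of 19865, 21511 and 22208 genes. Single larvae left out gave 3 to 7, with 0.896% (without resilient stressed 3) to 7.84% (without resilient stressed 5) of all genes. For the difference of responses (0), DESeq2 called 2, with 2.21% of the 18887 genes to which it gave an adjusted p. Single larvae left out gave 0 to 1, with 0.0224% to 0.593% of all genes. Over all genes, DESeq2 moved the calls from 391 to 771 higher and from 391 to 774 lower for the archetypes after stress, and from 15 to 183 higher and from 16 to 234 lower for the difference of responses. Leaving out 1 larva lowers the number of samples as well, and which of these caused a lost call was not tested.

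The deviations of same-numbered larvae from their group means were correlated over 0.1 for every pair in no comparison, the condition set for pairing, so the numbers were not used as pairs. For stress in resilient larvae the correlations ran from -0.12 to 0.04 over 4 pairs by title number and from -0.08 to 0.03 over 3 pairs by the number in brackets, and for stress in susceptible larvae from -0.11 to -0.01 and from -0.04 to -0.01. For the archetypes after stress they ran from -0.17 to 0.14 by title number, and by bracket number they were positive for all 4 pairs (0.00309 to 0.17, with 2 over 0.1). Before stress they ran from -0.24 to -0.05 and from -0.12 to 0.20. With the replicate block by title number 4 markers were called for stress in resilient larvae and 4 between archetypes after stress (3.92% and 2.28% of all genes in either direction), and with the block by bracket number 3 and 7 (1.94% and 2.21%).

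Signs turned only for values that were not called. For stress in susceptible larvae, spi1b went to -0.00356 with the replicate block by title number and marco to -0.00411 with that by bracket number, and without susceptible basal 1 and 2 mfap4 went to 0.23 and apoc1 to 0.13. Single larvae left out gave ranges of -0.0435 to 0.325 for havcr1, -0.0494 to 0.522 for marco, -0.376 to 0.0506 for apoc1, -0.0438 to 0.182 for csf1ra and -0.13 to 0.18 for spi1b. Before stress, apoc1 went to -0.0617 with the block by bracket number, mfap4 to 0.83 without resilient basal 1 and 3, and csf1ra to -0.10, spi1b to -0.22 and apoc1 to -0.31 without susceptible basal 1 and 2. Single larvae left out gave -0.33 to 0.23 for mfap4, -0.23 to 0.23 for apoc1, -0.0416 to 0.294 for spi1b and -0.0295 to 0.542 for marco. Without resilient stressed 2 and 3, apoc1 went to -0.00539 after stress and to -0.0740 for the difference of responses, and to -0.00570 for the latter without resilient basal 1 and 3.

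The average over the markers has no DESeq2 value, and the difference of responses needs all 4 groups. With 4 or 5 larvae a group, the intervals of uncalled markers remain wide, and gpr183a rests on as few as 27 reads in a larva.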

Other observations

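Genes of the oxygen-carrying and clotting blood cells had a higher summed level in susceptible basal than in resilient basal larvae. Before stress, 16 of the 17 tested thrombocyte and erythrocyte genes had a positive log2 fold change for susceptible against resilient larvae, with a median of 0.91, and none was called by edgeR. The summed level of the list's 19 rows, 2 of which had too few reads for the test, ran from 1050 to 1371 CPM in resilient basal larvae and from 1509 to 3204 CPM in susceptible basal larvae, without overlap. A sum weighs the most abundant rows most. Among single tested genes 1.63% had every susceptible basal larva above every resilient basal larva. In the stressed larvae it ran from 907 to 1651 CPM and from 1195 to 1968 CPM. With stress in susceptible larvae 16 of the 17 were negative, with a median of -0.56, and again none was called. The kidney tubule sums overlapped among the 4 groups, at 599 to 696 CPM in resilient basal, 574 to 654 CPM in resilient stressed, 481 to 725 CPM in susceptible basal and 520 to 692 CPM in susceptible stressed larvae.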
